A study of Homo sapiens with 9 samples.

Results

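The 2 arrays hybridised with RNA from cells given miR-21 oligonucleotides, 1 for the native and 1 for the methylated form, were taken by their titles from a series of 9 arrays and set against the 1 array titled negative control. All 9 came from RKO, a human colorectal cancer cell line, in which DICER had been disrupted at exon 5, so the control cells carried that disruption too. Whether the disrupted cells were 1 clone is not given in the labels. Double-stranded RNA oligonucleotides were delivered with Lipofectamine, a lipid carrier, and RNA was taken after 48 h. Besides miR-21 native, miR-21 methylated and the negative control, the series held 1 native and 1 methylated array each for miR-200c, let7a and miR-17, which served here to ask which differences were shared. The labels name neither the methylated base nor the sequence of any oligonucleotide, the control's included. By its design text the study asked how modification of RNA influences miRNAs. No group had a second array, so a difference between single arrays has no replicate check, and p-values below measure only the spread between these arrays, which may be technical.

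A miRNA guides an Argonaute protein to messenger RNAs that pair with its seed, and those messenger RNAs are then translated less and often degraded. DICER cuts precursor RNAs into mature miRNAs, and a synthetic duplex can be loaded without that cut. miR-21 is abundant in many tumours, colorectal ones included, and its known targets hold back growth or survival, among them the translation inhibitor PDCD4 and the antiproliferative gene BTG2. The mature strands of the 4 miRNAs are printed because the seed (bases 2 to 8, in capitals) is the stretch that defines the messenger RNAs a mimic can pair with. They are the RefSeq sequences for build GRCh38.p14, not the oligonucleotides themselves.
hsa-miR-21-5p: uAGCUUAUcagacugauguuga
hsa-miR-200c-3p: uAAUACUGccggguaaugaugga
hsa-let-7a-5p: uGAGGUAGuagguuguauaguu
hsa-miR-17-5p: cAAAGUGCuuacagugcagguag
The miR-21 strand lies at chr17:59841273-59841294 on the plus strand, within the MIR21 gene. The others lie at chr12:6963742-6963764 (MIR200C), chr9:94175962-94175983 (MIRLET7A1) and chr13:91350618-91350640 (MIR17), also on the plus strand. Position by position, the miR-200c seed differed from the miR-21 seed at 6 of 7 bases, the let-7a seed at 5 and the miR-17 seed at 5, so no seed was shared.

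Values are log2 intensities of 1-colour 3D-Gene arrays after background correction and quantile normalization, and a difference of 0.58 on this scale is 1.5-fold. Detection meant a signal higher than the blank spots' mean by 2 of their SD. That held for 17276 of 24460 probes (70.6%) on the miR-21 native array, 17722 (72.5%) on the miR-21 methylated array and 17115 (70.0%) on the control, within the 69.4% to 78.2% of all 9. The analysis kept 16072 features, each the brightest kept probe of a gene, or an unnamed probe. DICER1 was at 6.55 native, 6.48 methylated and 6.71 on the control, but where that probe lies in the transcript was not analysed here, so the level says nothing of the disruption. The epithelial markers EPCAM (7.73, 7.84 and 7.38 in the same order), KRT18 (10.66, 10.66 and 11.04) and CDX2 (6.93, 6.84 and 6.69) were detected. They belong to 9 colorectal epithelial cell line markers, of which 7 had a kept probe. KRT8 had no probe of its own symbol on the array, while KRT19 was on the array without a kept probe. Of 22 genes in a wider epithelial list 16 had a kept probe. CLDN4, ESRP1, GRHL2 and DSP were on the array without one. Of 14 blood and immune markers 6 had a kept probe and of 12 fibroblast and endothelial markers 4 had. The pan-leukocyte PTPRC and the collagens COL1A1 and COL3A1 were on the array without a kept probe. The brightest of the 10 were CD68, a lysosomal protein that is not exclusive to macrophages (13.22, 13.04 and 13.14), and the B cell gene CD79A (8.55, 8.64 and 8.41), and all 10 differed from the control by -0.10 to 0.22. With each feature centred by form, the miR-21 pair had a Pearson's r of 0.46 across features, which are not independent replicates. It was 0.69 between the array labelled let7a methylated and miR-17 native and 0.56 between let7a native and the array whose label reads miR-17 methylated, against -0.22 and -0.16 for the pairs as labelled. The let7a and miR-17 arrays therefore pair across their labels, and the correlations do not tell which of the labels are off. For short, the 2 labelled methylated are called below the arrays that go against their labels, a choice these values do not settle. The not-shared and outside-range counts, and those of the model tests further on, are given with and without these 2 arrays. Other counts that use the other mimics include them.

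With miR-21, a small set of transcripts differed from the control on both arrays. Among those lower by at least 1.5-fold with miR-21 and with no other mimic were SBNO1, KDELR3, DDAH1, WEE1, OIP5 and RAD51AP1. Some of these were lower by less than 1.5-fold with other mimics, WEE1 with all 6 arrays, and under a limit of 0.32 on the log2 scale for the others SBNO1 and 1 unnamed probe were left. The secreted protein gene SPP1 was higher. Most of the higher features were also at least 1.5-fold higher on at least 4 of the 6 other mimic arrays. All of these differences use the same control array, and a low reading there alone would give such sharing. In RNA from whole cultures, fewer cells with a transcript and less of it per cell cannot be told apart. Of 15322 features detected on the control and both miR-21 arrays, 32 (0.209%) were at least 1.5-fold lower on both and 59 (0.385%) at least 1.5-fold higher on both, 91 (0.594%) in all, and 0 were past 1.5-fold in opposite directions. Taken alone, the native array had 63 lower (0.411%) and 96 higher (0.627%), and the methylated array 121 lower (0.79%) and 118 higher (0.77%). Over all 16072 features the median difference was 0.00 native and 0.01 methylated, with a robust SD of 0.11 on each. Both differences use the same control array. In the values the authors deposited, the split was 168 lower and 193 higher.

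**Figure D1:**
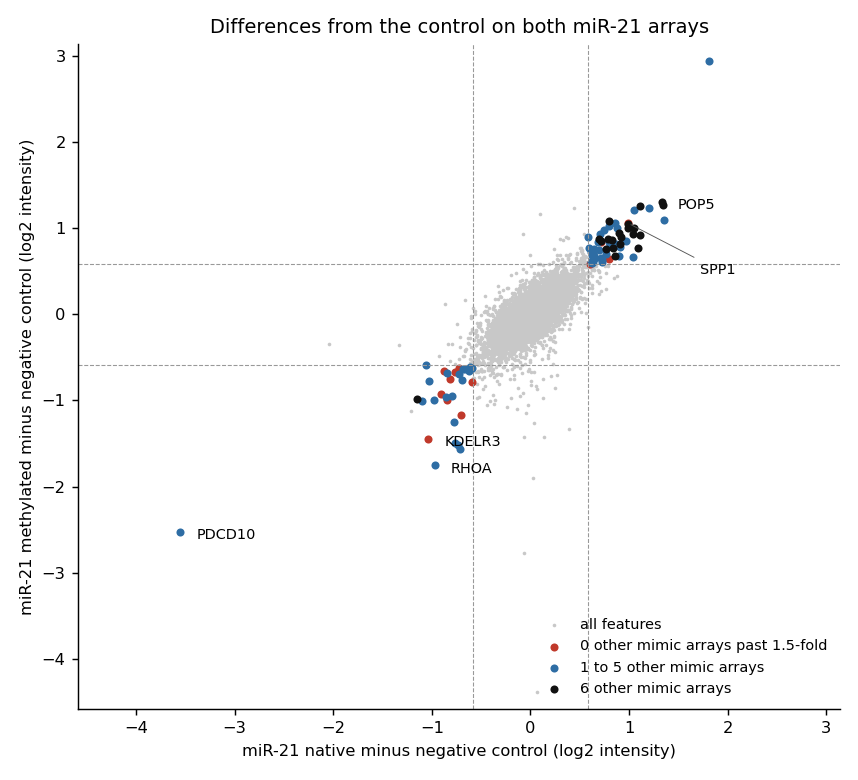
Log2 difference from the negative control on the miR-21 native array (x axis) and on the miR-21 methylated array (y axis), 1 point per feature. Dashed lines mark 1.5-fold, and colour gives the number of the 6 other mimic arrays past 1.5-fold in the same direction. PDCD10 lies at -3.55 and -2.53, and of the black points, shared with all 6, 20 lie at the upper right and 1, BIRC3, at the lower left.

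Of the 32 lower features, 10 (0.0653% of those tested) were past 1.5-fold in the same direction on none of the 6 other mimic arrays, and of the 59 higher features 4 (0.0261%). Without the 2 arrays that go against their labels these counts were 10 and 5. A separate criterion did not rest on the control alone. It asked for both miR-21 values to lie beyond all 7 other arrays by at least 0.32 on the log2 scale, and 15 of 16072 features met it as lower (0.0933%) and 6 as higher (0.0373%). Without those 2 arrays, measured against the remaining 5, 19 and 8 met it. The same criterion applied to the miR-200c pair gave 264 lower and 97 higher. Applied to the pairs as labelled it gave 1 lower and 0 higher for let7a, and 0 in each direction for miR-17. Of the miR-21 features, 5 lower and 1 higher met both criteria, namely SBNO1, KDELR3, DDAH1 and a pair of unnamed probes as lower and SPP1 as higher. In the authors' deposited values the not-shared split was 36 lower and 3 higher and the range split 56 and 5. Median scaling gave a range split of 19 and 4.

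**Figure D2:**
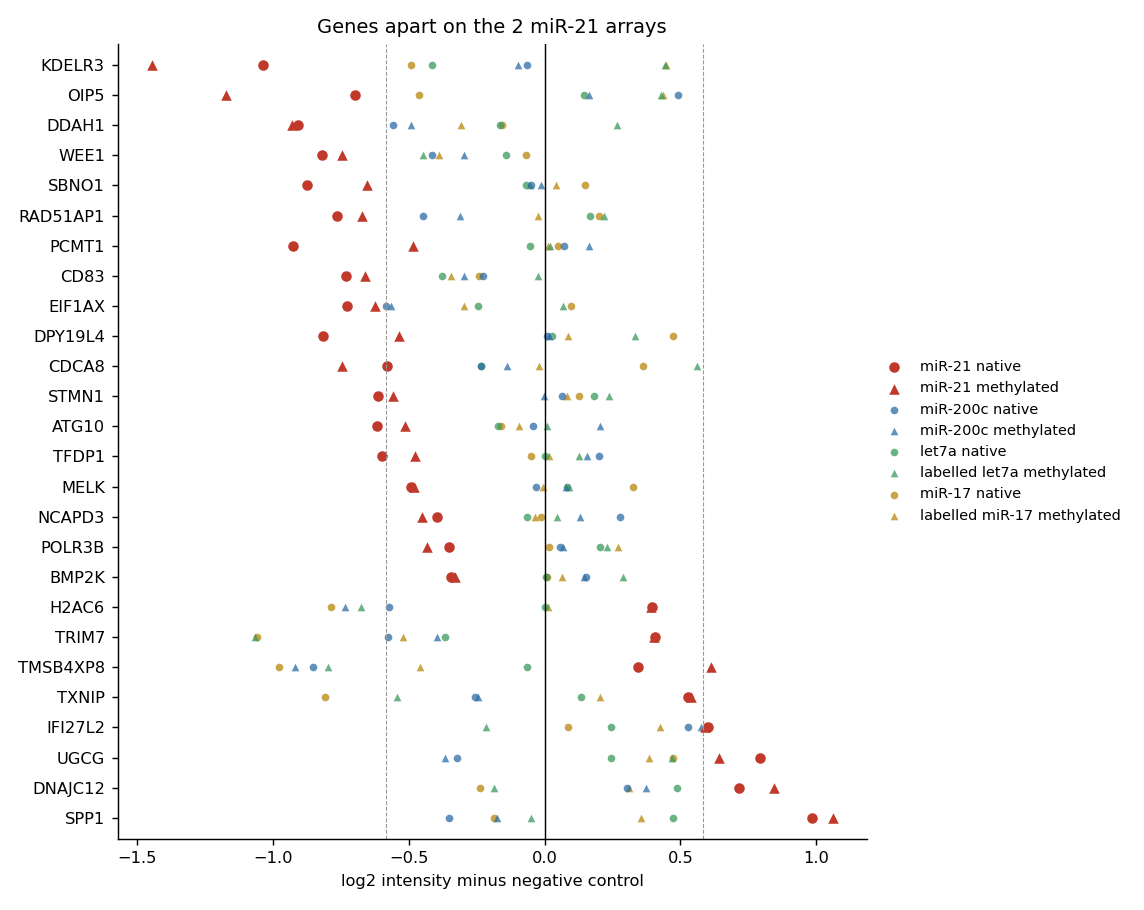
Log2 difference from the negative control for each named gene that was past 1.5-fold on both miR-21 arrays and on no other mimic array, or that had both miR-21 arrays outside the range of the 7 other arrays. Large red symbols are the miR-21 arrays, small symbols the 6 other mimic arrays, circles native and triangles methylated, the vertical line the control and the dashed lines 1.5-fold. SBNO1 stands at -0.87 and -0.66 with miR-21 while the other mimics cluster at the control.

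SBNO1, a helicase-related protein of the Strawberry notch family, was the named lower gene with the widest gap to the other arrays. Its level was 9.40 on the miR-21 native array and 9.62 on the miR-21 methylated array, against 10.21 to 10.42 (median 10.24) on the 6 other mimic arrays and 10.28 on the control. Both miR-21 arrays lay below every other array, and the other 7 lay close together. From the control it was at -0.87 native and -0.66 methylated, with the other mimics at -0.07 to 0.15. It met both criteria under all 7 alternatives of background correction, scaling, filter and probe choice. Among the other genes not shared, OIP5 and CD83 stayed so in 7 of the 7, RAD51AP1 in 6, KDELR3, WEE1 and DNAJC12 in 5, DDAH1 and UGCG in 4, and SPP1, EIF1AX and IFI27L2 in 3. In 3 alternatives (no filter, detection on all 9 arrays and the mean over probes) all 14 not-shared features stayed so, which separates no genes. With blank subtraction, a smaller offset, median scaling and the deposited values, 7, 9, 8 and 5 of the 14 did. SPP1, EIF1AX and IFI27L2 stayed not shared in none of these 4. KDELR3 and SPP1 lay outside the range of the others in 7 and DDAH1 in 6.

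Genes of membrane traffic and metabolism followed. KDELR3, a receptor that returns escaped proteins to the endoplasmic reticulum, was at 6.66 on the miR-21 native array and 6.25 on the miR-21 methylated array, against 7.21 to 8.15 (median 7.62) on the 6 other mimic arrays and 7.70 on the control. The miR-21 arrays were again the lowest, but the other mimics were spread over both sides of the control. With miR-21 it stood -1.04 native and -1.45 methylated from the control, so KDELR3 was the 1 feature in the not-shared set at a threshold of 2-fold. DDAH1, an enzyme that breaks down the nitric oxide synthase inhibitor dimethylarginine, was at 6.51 on the miR-21 native array and 6.49 on the miR-21 methylated array, against 6.86 to 7.68 (median 7.18) on the 6 other mimic arrays and 7.42 on the control. It lay -0.91 and -0.93 from the control with miR-21, and came within reach of the threshold with miR-200c (-0.56 native, -0.49 methylated). PCMT1, which repairs damaged aspartyl residues in proteins, was at 9.42 on the miR-21 native array and 9.86 on the miR-21 methylated array, against 10.29 to 10.51 (median 10.38) on the 6 other mimic arrays and 10.34 on the control. It lay below all other arrays without passing 1.5-fold on the methylated one (-0.93 native and -0.48 methylated).

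Genes of mitosis, centromeres, DNA repair and transcription control were among the rest. WEE1, the kinase that holds cells back from mitosis by inhibiting CDK1, was at 7.07 on the miR-21 native array and 7.14 on the miR-21 methylated array, against 7.44 to 7.82 (median 7.55) on the 6 other mimic arrays and 7.89 on the control. The miR-21 arrays were lowest and the control was the highest of all 9, with differences of -0.82 native and -0.75 methylated. OIP5, which helps to load the centromeric histone CENP-A, was at 8.52 on the miR-21 native array and 8.05 on the miR-21 methylated array, against 8.76 to 9.71 (median 9.52) on the 6 other mimic arrays and 9.22 on the control. Its miR-21 values lay below the others by a narrow margin (-0.70 native and -1.17 methylated from the control, with miR-17 native at -0.46). RAD51AP1, which acts in DNA repair by homologous recombination, was at 8.11 on the miR-21 native array and 8.20 on the miR-21 methylated array, against 8.43 to 9.10 (median 8.95) on the 6 other mimic arrays and 8.88 on the control. The values did not overlap, miR-21 native stood at -0.76 and methylated at -0.67 from the control, and another probe of the gene gave -0.68 and -0.62.

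STMN1, which destabilises microtubules, was at 9.53 on the miR-21 native array and 9.58 on the miR-21 methylated array, against 10.14 to 10.38 (median 10.25) on the 6 other mimic arrays and 10.14 on the control. Both miR-21 arrays lay well below a tight group of 7, although the difference on the methylated array fell short of 1.5-fold (-0.61 native and -0.56 methylated). TFDP1, the dimer partner of E2F transcription factors, was at 9.38 native and 9.50 methylated, against 9.92 to 10.18 (median 10.05) on the other mimic arrays and 9.98 on the control. The cell-cycle kinase gene MELK was at 7.25 native and 7.26 methylated, against 7.71 to 8.07 (median 7.82) on the other mimic arrays and 7.74 on the control. In both genes the miR-21 arrays were the lowest of all 9, at differences of -0.60 native and -0.48 methylated for TFDP1 and -0.49 native and -0.48 methylated for MELK. CDCA8, or borealin, a subunit of the chromosomal passenger complex that corrects chromosome attachment, was at 9.75 native and 9.59 methylated, against 10.10 to 10.90 (median 10.26) on the other mimic arrays and 10.34 on the control. Its native difference of -0.58 stood just short of the threshold. The condensin II subunit NCAPD3 (-0.40 native and -0.45 methylated) and the RNA polymerase III subunit POLR3B (-0.35 native and -0.43 methylated) lay outside the range of the others with smaller differences from the control. The kinase BMP2K was at -0.34 native and -0.33 methylated, with another probe at -0.17 and -0.15.

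Among the remaining lower genes, CD83, a membrane glycoprotein of activated immune cells and a known NF-kappaB target, was at 7.43 on the miR-21 native array and 7.50 on the miR-21 methylated array, against 7.79 to 8.14 (median 7.90) on the 6 other mimic arrays and 8.17 on the control. The control was its highest array and miR-21 its lowest pair, with differences of -0.73 native and -0.66 methylated. The translation initiation factor EIF1AX was at 8.57 native and 8.67 methylated, against 8.71 to 9.39 (median 9.02) on the other mimic arrays and 9.30 on the control. It missed being shared by a small margin, since it lay at -0.58 and -0.57 with miR-200c against -0.73 and -0.62 with miR-21. DPY19L4, of a family of membrane enzymes that attach sugars to proteins, was at -0.82 native and -0.54 methylated from the control, but another of its probes was at 0.35 and 0.23, so its probes disagree in direction. ATG10, an enzyme of autophagy, was detected on 7 arrays and on neither miR-21 array, at 5.78 native and 5.88 methylated against 6.40 on the control. Set against the detection limit it was at least 1.405-fold lower with miR-21.

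On the higher side SPP1, or osteopontin, a secreted phosphoprotein of the extracellular matrix, stood apart. Its level was 7.64 on the miR-21 native array and 7.72 on the miR-21 methylated array, against 6.30 to 7.13 (median 6.54) on the 6 other mimic arrays and 6.66 on the control. Every other array lay below the miR-21 pair, which was 0.99 native and 1.06 methylated above the control. UGCG, the enzyme that makes glucosylceramide, was at 8.37 native and 8.22 methylated, against 7.21 to 8.05 (median 7.89) on the other mimic arrays and 7.58 on the control. The miR-21 arrays were the highest, and miR-200c lay below the control while let7a and miR-17 lay above it (0.79 and 0.64 with miR-21, -0.32 and -0.37 with miR-200c). DNAJC12, a co-chaperone of amino acid hydroxylases, was at 9.17 native and 9.30 methylated, against 8.22 to 8.94 (median 8.76) on the other mimic arrays and 8.45 on the control, or 0.72 and 0.85 from the control. IFI27L2, a relative of the interferon-induced gene IFI27, was at 0.60 and 0.59, a small margin over miR-200c at 0.53 and 0.58.

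Other higher genes were outside the range of the 7 other arrays without a 1.5-fold difference from the control on both arrays. TXNIP, which binds and inhibits thioredoxin, was at 8.25 native and 8.27 methylated, against 6.92 to 7.93 (median 7.48) on the other mimic arrays and 7.73 on the control. TRIM7, a ubiquitin ligase gene, was at 8.52 native and 8.52 methylated, against 7.05 to 7.75 (median 7.57) on the other mimic arrays and 8.12 on the control. In TRIM7 every other mimic lay below the control, at -1.07 to -0.37 from it, while the miR-21 arrays lay 0.41 and 0.40 above it. The histone gene H2AC6 (0.39 native and 0.39 methylated) and the thymosin beta 4 pseudogene TMSB4XP8 (0.34 native and 0.61 methylated) belong to families of near-identical copies, so which copy their probes measured is uncertain. The nearest features to the 1.5-fold threshold on the inside were SARAF (0.59 native and 0.89 methylated), ODC1 (0.59 and 0.77) and IFI27L2. Just outside it stood MYEOV (0.59 and 0.58), C18orf32 (0.58 and 0.79) and CDCA8.

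Unlike those of KDELR3, DDAH1 and OIP5, several other large lower differences with miR-21 were shared with other mimics. PDCD10, a scaffold protein of the cerebral cavernous malformation complex, was at 6.08 on the miR-21 native array and 7.10 on the miR-21 methylated array, against 6.74 to 10.07 (median 8.88) on the 6 other mimic arrays and 9.63 on the control. The native array was the lowest of all 9, but the range of the other mimics reached below the methylated one. From the control it was at -3.55 native and -2.53 methylated with miR-21. It was also at -2.89 and -1.80 with miR-200c and at -1.86 with let7a native, while the other 3 arrays lay above the control. The small GTPase RHOA, which organises the actin skeleton, was at 11.37 native and 10.59 methylated, against 10.65 to 12.57 (median 11.91) on the other mimic arrays and 12.34 on the control, and the focal adhesion protein ZYX at 7.51 native and 6.78 methylated, against 6.44 to 8.68 (median 7.79) on the other mimic arrays and 8.27 on the control. Both were low on let7a native and miR-17 native too (-1.57 and -1.69 for RHOA, -1.84 and -1.59 for ZYX, with miR-21 at -0.97 and -1.76, and at -0.77 and -1.49). ABHD17C, a depalmitoylating enzyme, had the same 2 partners (-1.77 and -1.03, with miR-21 at -1.10 and -1.01). GBP3, an interferon-induced GTPase, shared its difference instead with the array labelled let7a methylated (-1.34) and miR-17 native (-1.44), with miR-21 at -0.97 and -1.0.

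Further lower genes were shared with up to 6 of the other mimic arrays. BIRC3, an inhibitor of apoptosis induced by NF-kappaB, was at 8.64 on the miR-21 native array and 8.81 on the miR-21 methylated array, against 7.67 to 8.23 (median 7.94) on the 6 other mimic arrays and 9.79 on the control. The control exceeded all 8 mimic arrays, and the miR-21 arrays stood nearest to it, at -1.15 and -0.99 against -2.13 to -1.57 for the others. BIRC3 was the 1 lower feature shared by all 6 other arrays. NFKBIA, the inhibitor that retains NF-kappaB in the cytoplasm, was at 9.73 native and 9.62 methylated, against 8.85 to 10.48 (median 9.69) on the other mimic arrays and 10.59 on the control. It was shared with both arrays labelled let7a and both labelled miR-17 (-1.74, -1.01, -0.80 and -0.99), and not with miR-200c (-0.23 and -0.11), beside miR-21 at -0.86 and -0.96. ERRFI1, which restrains signalling by EGFR, gave the same division, with miR-21 at -0.70 and -0.77 and miR-200c at 0.12 and -0.09. JAZF1, a zinc finger cofactor, was at -0.78 and -1.25 and was shared by 4 other arrays. TPRG1L was at -1.03 and -0.78, with another probe at -0.51 and -0.55. The ubiquitin ligase gene RNF149 was at -0.72 and -1.56 by its brightest probe and at -0.05 and -0.01 by another, dim probe. All of these comparisons use the same control array.

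Many of the higher features were also higher on other mimic arrays, measured against the same control array. A low reading on that array alone would make a feature higher on every mimic array. Sharing among the mimics and a low control therefore cannot be told apart, and the share over all features is not given here. Of the 59 higher features 34 were shared by at least 4 other mimic arrays, 20 of them by all 6, whereas 7 of the 32 lower ones were shared by at least 4. On 46 of the 59 the control was the lowest of all 9 arrays, and on 8 of the 32 lower features it was the highest. Over the 15322 features tested these shares were 10.9% and 6.92%, but the 59 and the 32 were chosen by their distance from the control, so nothing is read from that comparison. The same control array enters the difference of every mimic. POP5, a subunit of the RNA-processing enzymes RNase P and RNase MRP, was at 10.07 on the miR-21 native array and 10.05 on the miR-21 methylated array, against 9.97 to 10.46 (median 10.13) on the 6 other mimic arrays and 8.74 on the control. YWHAB, a 14-3-3 adaptor protein, was at 10.94 on the miR-21 native array and 10.86 on the miR-21 methylated array, against 10.22 to 11.01 (median 10.80) on the 6 other mimic arrays and 9.59 on the control. In both genes the 8 mimic arrays lay together above the control, by 1.33 and 1.31 for POP5 and by 1.35 and 1.27 for YWHAB with miR-21.

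Several encode parts of general cell machinery. The mitochondrial ribosomal protein MRPS35 was at 9.56 native and 9.60 methylated, against 8.93 to 9.75 (median 9.26) on the other mimic arrays and 8.36 on the control, and the splicing and nucleolar protein SNU13 at 11.88 native and 12.02 methylated, against 11.72 to 12.31 (median 11.93) on the other mimic arrays and 10.76 on the control. In these genes too the miR-21 values lay inside the range of the other mimics. From the control MRPS35 was at 1.20 native and 1.24 methylated, with another probe at 0.56 and 0.84, and SNU13 was at 1.11 native and 1.26 methylated. The respiratory chain subunit NDUFB5 was at 1.05 and 1.21, the nucleosome-binding protein HMGN1 at 1.04 and 1.0, and the translation termination factor ETF1 at 1.11 and 0.93. The collagen chain COL9A3 (0.99 and 1.04), AMMECR1 (1.04 and 0.93) and NARS2, which charges mitochondrial transfer RNA with asparagine (0.91 and 0.90), were shared by all 6 other arrays, as were HMGN1 and ETF1. NDUFB5 and the G protein subunit GNA11 (1.35 and 1.10) were shared by 4.

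**Figure D3:**
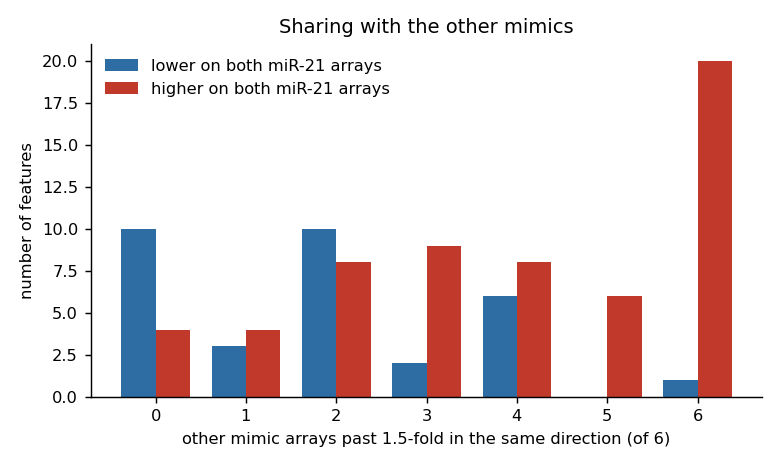
Number of features (y axis) lower (blue) or higher (red) by at least 1.5-fold than the control on both miR-21 arrays, by the number of the 6 other mimic arrays past 1.5-fold in the same direction (x axis). The higher features peak at 6 arrays with 20, while 10 of the 32 lower features are at 0.

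No feature passed a test of the miR-21 pair against the control. In limma's model over all 9 arrays, with the miRNA and the form as terms and 3 residual degrees of freedom, 0 of 16072 features had a Benjamini-Hochberg adjusted p of 0.05 or less (0% called), and 556 had an unadjusted p under 0.05 (5% of the features is 803.6). The lone control was assumed to vary like the mimic pairs. The smallest adjusted p, 0.0610, belonged to GPX1, an antioxidant selenoprotein, which was dim and detected on 7 arrays, at 5.88 native, 5.90 methylated and 6.33 on the control. For the genes above, the modelled difference of SBNO1 was -0.76 (SE 0.18, limma adjusted p = 0.904), of DDAH1 -0.92 (SE 0.17, adjusted p = 0.734) and of POP5 1.32 (SE 0.17, adjusted p = 0.495). PDCD10 was at -3.04 (SE 0.52, adjusted p = 0.669). The pairs labelled let7a and miR-17, whose arrays pair across their labels, enter this estimate of spread.

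Without those 2 arrays, a fit with 1 residual degree of freedom, 49 features were lower (0.305%) and 57 higher (0.355%) at an adjusted p of 0.05, and 1789 had an unadjusted p under 0.05. They included 21 of the 32 features lower on both arrays and 39 of the 59 higher ones, which is no independent support since the same 3 arrays give the difference. PDCD10, KDELR3, DDAH1, SPP1 and WEE1 passed in that fit, and SBNO1 and STMN1 did not. Its 1 residual is how far the methylated minus native difference of miR-21 departs from that of miR-200c. For PDCD10 both pairs differed alike, at -3.55 native and -2.53 methylated with miR-21 and -2.89 and -1.80 with miR-200c. Its residual was therefore small although neither pair was close together. In the full model with miR-21 native left out, 1 feature passed, RPL35A, which is described with the native and methylated arrays.

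Set against the mean of the other 3 miRNAs, with no use of the control, again 0 of 16072 features passed (0% called), with 1140 at an unadjusted p under 0.05. SBNO1 was at -0.77 (SE 0.12, limma adjusted p = 0.36), and STMN1 at -0.70 (SE 0.11, adjusted p = 0.36). KDELR3 at -1.21 and OIP5 at -1.14 had larger differences with larger errors (SE 0.27 and 0.26). SPP1 was at 1.01 (SE 0.18, adjusted p = 0.38). BIRC3 was at 0.78 in this contrast (SE 0.12), since the other mimics lay farther below the control than miR-21 did, and POP5 came to -0.13 (SE 0.12). Without the 2 arrays that go against their labels, 148 features were lower (0.921%) and 164 higher (1.02%).

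Known miR-21 targets lay slightly below the control as a group. Of 47 listed genes 39 had a kept probe. On both miR-21 arrays, 26 of these lay below the control and 6 above it, while of all 16072 features 35% were below and 39.4% above. The median over the 39 was -0.14 native and -0.12 methylated. On the 6 other mimic arrays the same median ran from -0.11, on miR-200c methylated, to 0.01. At 1.5-fold on both arrays 3 of the 39 members were lower and 0 higher, where 0.209% and 0.385% of all features were, and 0 passed limma's test. The 3 were ZNF367, a zinc finger gene at 6.52 on the miR-21 native array and 6.36 on the miR-21 methylated array, against 6.48 to 7.46 (median 7.06) on the 6 other mimic arrays and 7.31 on the control, YOD1, a deubiquitinating enzyme, and SESN1, a stress-induced target of p53. ZNF367 was low on miR-17 native as well and so overlapped the other mimics, at -0.79 native and -0.95 methylated from the control with miR-21 against -0.83 on miR-17 native.

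YOD1 was at 6.63 native and 6.66 methylated, against 6.45 to 7.12 (median 6.91) on the other mimic arrays and 7.36 on the control. It was lower still with miR-200c, so the groups overlapped, and it was at -0.72 and -0.69 from the control with miR-21 (another probe at -0.55 and -0.61). SESN1 was at 7.19 native and 7.16 methylated, against 6.76 to 8.23 (median 7.59) on the other mimic arrays and 7.78 on the control, or -0.60 native and -0.62 methylated from the control, inside the range of the other mimics. BTG2 was at 7.15 native and 7.09 methylated, against 7.07 to 8.01 (median 7.23) on the other mimic arrays and 7.67 on the control. It stood at -0.51 and -0.58 from the control with miR-21, let7a and miR-17 were also low (-0.60 to -0.38), and both miR-200c arrays lay above the control. The death receptor gene FAS was at -0.57 and -0.30, and CDK2AP1, which binds the kinase CDK2, at -0.64 and -0.33. PDCD4 was at 8.23 native and 8.15 methylated, against 8.01 to 8.46 (median 8.33) on the other mimic arrays and 8.52 on the control. Its miR-21 values lay below the control but within the range of the other mimics (-0.29 native and -0.37 methylated). RHOB, a growth-inhibiting GTPase, was at -0.26 and -0.34 with all 6 other mimics also below the control, and another probe was at 0.01 and -0.12.

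Further targets chosen by name were near the control or above it. The receptor-signalling inhibitor SPRY1 was dim at 6.19, 6.17 and 6.26 (native, methylated and control), and its relative SPRY2 was at 0.28 and -0.01 from the control. Tropomyosin TPM1 (-0.01 and 0.02), the metalloproteinase inhibitor TIMP3 (0.08 and 0.04), the receptor TGFBR2 (0.09 and 0.16) and its inhibitor SMAD7 (-0.07 and -0.10) differed little. The mismatch repair gene MSH6 was at 0.62 and 0.30, the highest member on both arrays, and was above the control on 5 of the 6 other arrays. Under median scaling the median over all features moved to 0.04 native and 0.14 methylated, and the target list to -0.12 and -0.07 (22 members below the control and 12 above), which lies below that shift on both arrays.

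**Figure D4:**
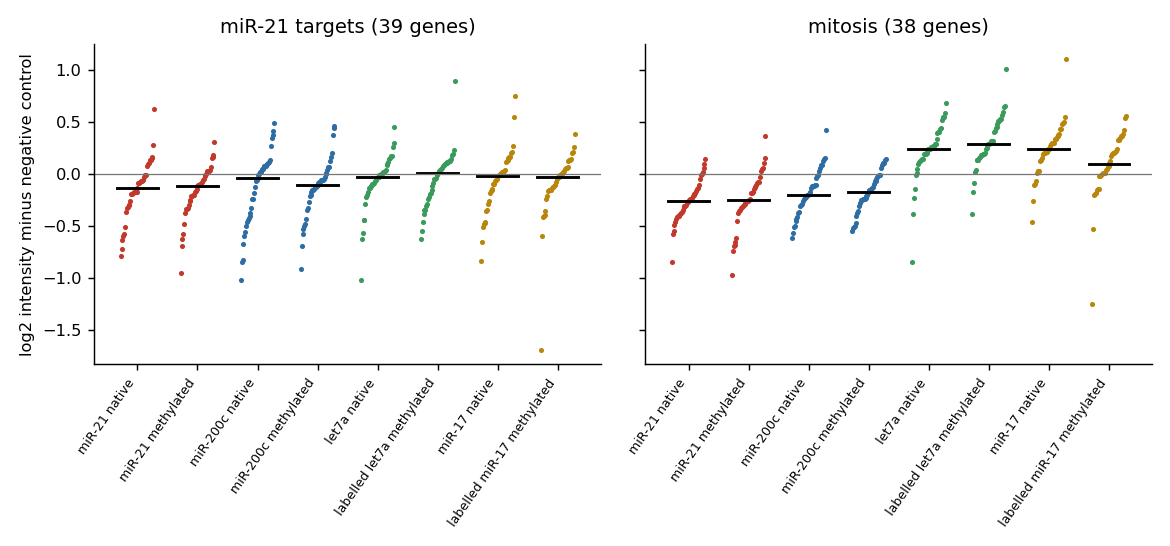
Log2 difference from the negative control for each member of the miR-21 target list (left, 39 genes) and of the mitosis list (right, 38 genes) on the 8 mimic arrays, 1 point per gene in order of its value, with the median as a black bar. The target list medians lie at -0.14 and -0.12 on the miR-21 arrays, and the mitosis medians are below 0 with miR-21 and miR-200c and above 0 on the other 4 arrays.

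Mitosis genes had a median below the control with miR-21, and here the mimics divided. With both forms of miR-21, 32 of 38 members lay below the control and 4 above, with medians of -0.26 native and -0.25 methylated. Over all features 35% lay below on both arrays and 39.4% above, and 0.209% were lower by at least 1.5-fold on both. The medians were -0.20 and -0.17 on the miR-200c native and methylated arrays. They lay above the control on both of the other native arrays (0.24 for let7a and 0.24 for miR-17), with the array labelled let7a methylated at 0.29 and that labelled miR-17 methylated at 0.09. AURKB, the kinase of the chromosomal passenger complex, was the member past 1.5-fold on both arrays, at 9.80 native and 9.96 methylated, against 9.40 to 10.92 (median 10.34) on the other mimic arrays and 10.65 on the control. It was at -0.85 native and -0.68 methylated from the control, but let7a native was as low (-0.85) and the array labelled miR-17 methylated lower still (-1.25). Its partner INCENP was at 7.33 native and 6.56 methylated, against 7.49 to 7.72 on the other mimics and 7.53 on the control, so its low value rests mainly on the methylated array. Topoisomerase TOP2A was at -0.50 and -0.65, with another probe at -0.54 and -0.65 and miR-200c at -0.43 and -0.51. The GTPase exchange factor ECT2, needed for cytokinesis, was at -0.42 and -0.61, and the checkpoint kinase BUB1 at -0.30 and -0.69. The highest members were the motor protein CENPE (0.06 and 0.36) and cyclin CCNA2 (0.15 and 0.15). None of the 38 passed limma's test, and the list medians on both miR-21 arrays stayed below 0 in all 7 alternatives. They were the lowest of the lists in the main setting, but not with the blank mean subtracted (-0.36 and -0.29, against -0.41 and -0.37 for NF-kappaB targets) or in the deposited values (-0.42 and -0.23, against -0.46 and -0.31).

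S phase and DNA replication genes had medians below the control with miR-21 and slightly above it with miR-200c, a difference that was not tested. Of 40 members 27 lay below the control with both forms of miR-21 and 6 above (35% and 39.4% over all features). The medians were -0.19 native and -0.17 methylated. On the miR-200c arrays the medians were 0.04 and 0.05, and they reached 0.29 on miR-17 native and 0.35 where the label reads let7a methylated. GINS1, a subunit of the replicative helicase, was at -0.53 and -0.67 from the control but also at -0.60 and -0.51 with miR-200c. The nuclease FEN1 was at 9.85 native and 9.49 methylated, against 9.94 to 10.46 on the other mimics and 10.20 on the control. Both miR-21 values lay below all other arrays, by less than 0.32. The checkpoint adaptor CLSPN (-0.37 and -0.73) and cyclin CCNE2 (-0.35 and -0.61) followed. The helicase subunit MCM5 was at -0.39 and -0.46. No member was past 1.5-fold on both arrays.

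The median of the NF-kappaB targets was below the control on all 8 mimic arrays. Of 18 members 13 lay below it with both forms of miR-21 and 2 above (35% and 39.4% over all features), with medians of -0.17 native and -0.18 methylated, against -0.27 to -0.18 on the other 6. Lower by 1.5-fold on both arrays were 3 members, BIRC3, NFKBIA and CD83, where 0.209% of all features were, and the first of these was lower with all 6 other mimics. IER3 was at -0.39 and -0.37 (another probe at -0.01 and 0.04). NFKB1, which encodes a subunit of the factor itself, was at 0.16 and 0.34. Of 26 RAS, ERK and PI3K signalling genes 16 lay below the control and 5 above on both arrays (35% and 39.4% over all features). The medians were -0.08 and -0.16 (11 below and 7 above under median scaling). ERRFI1 was the 1 member past 1.5-fold, again where 0.209% of all features were lower by that much, and the early response gene EGR1 was at -0.28 and -0.49.

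The other lists lay nearer to the control. Double-stranded RNA is sensed by interferon pathways, and of 25 members of that list 12 were below and 11 above the control on both arrays. Over all features these shares were 35% and 39.4%. The list medians were -0.02 native and 0.00 methylated. Under median scaling 2 were below and 17 above, with medians of 0.04 and 0.15, at that scaling's all-feature shift. EIF2AK2, a kinase activated by double-stranded RNA, was at 8.09 native and 7.50 methylated, against 6.36 to 8.69 (median 8.39) on the other mimic arrays and 8.50 on the control, and it lay lower still on let7a native and miR-17 native (-2.0 and -2.14 from the control). The interferon-induced IFI6 was at 0.53 and 0.75, with the other mimics at 0.54 to 1.22. The p53 target list had medians of -0.03 and -0.07, the apoptosis regulators -0.02 and -0.02, and the ribosomal proteins -0.04 and 0.00. The small RNA machinery had 13 of 16 members below the control on both arrays (35% over all features). AGO2, the Argonaute that cleaves paired targets, was at -0.44 and -0.57, with the other mimics at -0.81 to -0.42. The methylated median of this list, -0.10, turned to 0.03 under median scaling (7 members below and 5 above), below the all-feature shift. The let-7a target list was at -0.13 and -0.08, close to the miR-21 list. The miR-200c list was at 0.00 and -0.08 and the miR-17 list at 0.01 and -0.04. Medians of the TGF-beta, ER stress, cholesterol, hypoxia, invasion, epithelial and mesenchymal lists lay between -0.07 and 0.07 on both miR-21 arrays. Median scaling turned the sign of several of these small medians, to 0.05 methylated for the miR-200c list and 0.11 methylated for the TGF-beta list, for example.

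**Figure D5:**
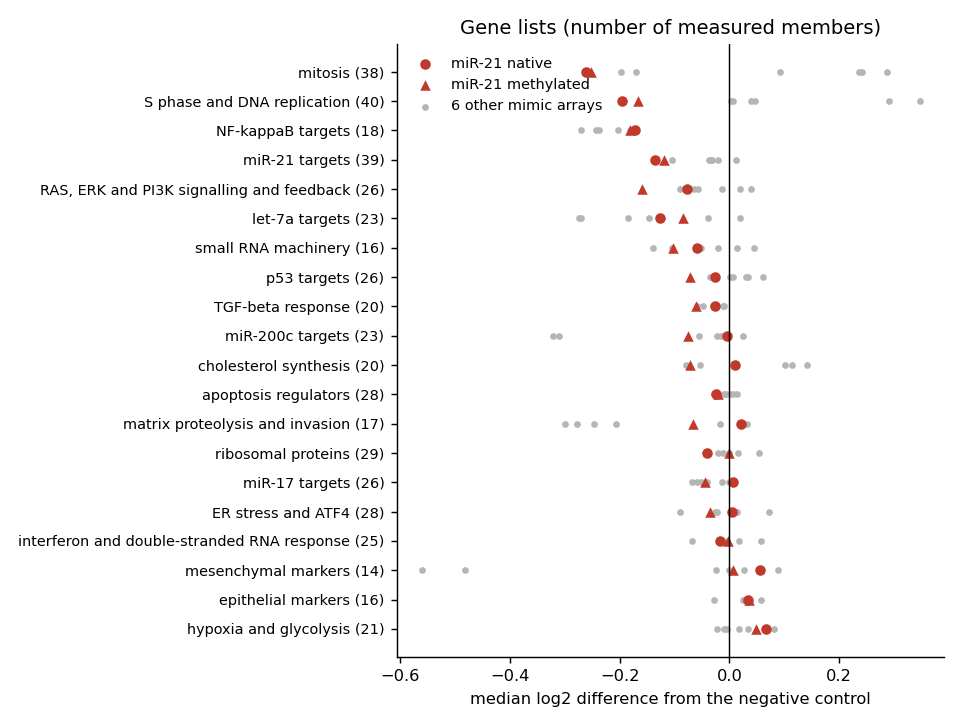
Median log2 difference from the negative control over the measured members of each gene list, with the number of members in brackets. Red circles are miR-21 native, red triangles miR-21 methylated and grey points the 6 other mimic arrays. The medians of mitosis (-0.26 and -0.25) and S phase (-0.19 and -0.17) lie below the control with miR-21, and their other mimic arrays reach above it.

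The native and methylated miR-21 arrays were close to each other. Methylated minus native, the robust SD over features was 0.09. Of the 16072 features 63 differed by at least 1.5-fold, against 102 for the miR-200c pair. RPL35A, a protein of the large ribosomal subunit, was at 13.93 native and 9.48 methylated, against 13.84 to 13.94 on the other mimics and 13.86 on the control, so a single array carried its difference. PDCD10 was 1.02 higher on the methylated than on the native array. Of the not-shared and outside-range genes, KDELR3 and OIP5 were lower on the methylated array and SBNO1, PCMT1 and DPY19L4 lower on the native one, with no replicate check. At the detection limit, 32 of the 16072 features were detected on the control and on neither miR-21 array and 257 the other way round. The control had the highest blank mean of all 9 arrays, at 46.8 against 36.6 native and 33.8 methylated. It also had fewer detected probes than either miR-21 array, so nothing is read from this split. None of these features had a bound of 1.5-fold or more. The largest were ATG10 and SH3D19, at least 1.405-fold and 1.4-fold lower with miR-21, and FABP6, at least 1.146-fold higher.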

How the data were processed

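Per the file headers, the authors deposited scanner files with the raw median intensity of 27456 spots per array at 635 nm, with no background subtracted, and a table of processed values per probe, also an intensity on a linear scale, made in a way not given in the sources used here. Its log2 served only as an alternative. In limma 3.58.1 (R 4.3.3) the deposited intensities were background corrected by normexp (offset 50), quantile normalized across all 9 arrays and converted to log2. Of 24460 probes 20236 had 1 gene symbol in the platform annotation. Of these 17238 were current, 2899 were updated and 99 kept an old name, by a RefSeq gene table of GRCh38.p14. Control spots and 9 probes marked as outliers were left out. Probes detected on at least 5 arrays, above the mean plus 2 SD of 2680 blank spots, numbered 17684. The brightest probe stood for a gene, which gave 16072 features, 13391 of them named.

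The model was limma's lmFit and eBayes with an intensity trend, over the miRNA and the form, with p-values adjusted by Benjamini-Hochberg over all features. It was also run on simulated data, and those results are not given here. Single-array comparisons have no test. Named genes were the 12 lowest and 12 highest past 1.5-fold on both arrays by the smaller difference, the 8 farthest apart in each direction of the not-shared and outside-range sets, fixed and extreme miR-21 targets, up to 4 members of each other list, the 5 most extreme by moderated t, those at the detection limit and the 5 largest in each direction of methylated minus native. Genes outside that rule, such as MYEOV, were named after their values were seen, and not every gene it covers is described. The members, lists and tests were chosen with earlier results of these data known. The alternatives were blank subtraction, offset 16, median scaling, the deposited table, filters, probe choice, model terms, fold thresholds and leaving arrays out. The number of arrays limits the precision.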

Additional observations from a re-analysis of the deposited data

How the results depend on the processing

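The 1.5-fold, not-shared and outside-range counts (91, 14 and 21) were 294, 36 and 56 with the blank mean subtracted, 149, 24 and 34 with offset 16, and 361, 39 and 61 in the deposited table. At 2-fold 10 features passed on both arrays and 1, KDELR3, was not shared. At 0.32 on the log2 scale on both arrays 560 passed. Requiring less than 0.32 on every other mimic left 2, SBNO1 and an unnamed probe. The outside-range count was 1164 with no minimum gap and 1 with a gap of 1.5-fold. The fold and gap counts follow the choice of threshold. Why the counts were larger with blank subtraction, with offset 16 and in the deposited table was not tested. The features themselves largely stayed. All 91 were past 1.5-fold with blank subtraction, offset 16, no filter and the stricter filter, 84 with median scaling and in the deposited table. Of the 14 not shared, 5 to 14 were again not shared.

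Limma's count against the control (0) was 33 with median scaling, 11 in the deposited table, 7 with no filter on dim probes (6 of them detected on at most 3 arrays), 1 with no form term (GPX1) and 106 without the 2 arrays that go against their labels. Leaving out 1 mimic array at a time it was 0 to 1. Against the other 3 miRNAs (0) it was 1 with offset 16 (ATG10), 125 with median scaling, 38 in the deposited table, 312 without those 2 arrays and 0 to 1 leaving out 1 array. The single feature was RPL35A without miR-21 native, in both contrasts, and an unnamed probe against the other miRNAs without the array labelled let7a methylated. The causes were not tested. The native median of the miR-21 target list was -0.29 in the deposited table, where the median over all features was -0.06, and otherwise moved within its spread.

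No called value or list median of the miR-21 targets reversed. Of 149 named genes 7 changed sign under median scaling, each with a main difference of at most 0.0866. No paired analysis was possible because the labels give no replicate numbers and each group holds 1 array. The form term already sets native against native and methylated against methylated arrays in the contrast with the other miRNAs. The lone control array underlies every difference from it and dim probes have compressed differences. Leaving out the 2 arrays that go against their labels also took the residual degrees of freedom to 1, and these effects were not separated.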
